A study of Rattus norvegicus with 6 samples.

Results

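The response of 208F cells to decitabine (5-aza-2'-deoxycytidine) was described over 3 of the 6 arrays of the study, chosen by their titles. 208F is an immortal, non-transformed rat fibroblast line, and it was measured untreated (n = 1) and after 0.3 µM decitabine for 96 h (n = 2). The other 3 arrays held FE8, a derivative of 208F transformed by HRAS, untreated (n = 1) and under the same dose and time (n = 2). They entered the fit and are otherwise used only where the lines are compared or where probe sets are ordered by untreated FE8. All 4818 probe sets that are not array controls were tested, and 2890 genes were named by at least 1 of them.

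Decitabine is a cytidine analogue that is built into DNA during replication, where it traps DNA methyltransferases. Methyl groups on CpG sites are then lost as cells divide, and genes kept silent by methylation of their promoters can become active. The drug is also known for damaging DNA and for inducing growth arrest through p53. Methylation itself was not measured on these arrays.

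The labels do not say whether the treated duplicates came from separate cultures, so the p-values rest on how far these samples differ, which may reflect technique alone. The untreated array was run on chip lot 1 and scan day 1, treated replicate 1 on lot 2 and day 2, and treated replicate 2 on lot 3 and day 3. No batch held both an untreated and a treated 208F array, so drug and run cannot be told apart. Signal at the 5' end over that at the 3' end, a measure of how intact the RNA is, was 0.824 untreated against 0.529 and 0.456 treated for beta-actin, and 0.916 against 1.13 and 1.01 for GAPDH. Of 15 fibroblast markers 11 were measured, and 9 of these had a signal over 1000 on all 3 arrays. The single measured endothelial marker was under 64 on all 3. In such bulk samples, fewer cells of a type and less RNA per cell cannot be told apart.

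Signals are the deposited linear intensities, and differences are treated minus untreated on the scale log2(signal + 64), ± the standard error of the fit. The constant holds down the size of a difference for genes with a signal near or below 64. A gene is said to have risen or fallen where limma's moderated test gave an adjusted p under 0.05, with 2-sided tests and Benjamini-Hochberg adjustment over all 4818 probe sets. By this rule 250 probe sets changed (5.19%), of which 173 rose (3.59%) and 77 fell (1.60%). They named 106 genes that rose and 50 that fell, each represented by its probe set of smallest p. No probe set that rose had a treated array below the untreated one, and none that fell had one above it. Taken alone, treated replicate 1 was at least 2-fold above the untreated array for 314 probe sets (6.52%) and 2-fold below it for 198 (4.11%). Treated replicate 2 was above for 504 (10.5%) and below for 207 (4.30%), and both were above for 238 (4.94%) and below for 106 (2.20%). The median of all differences was 0.11, and it became -0.03 after quantile normalization or after centring each array on its median. A list median is therefore read against the median of 0.12 over all genes. Counts in a list go by each gene's brightest probe set, by which 4.74% of all genes were called. On both treated arrays 45.6% of all genes lay above the untreated one and 28.9% below it.

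The error of the fit was shared between the lines, and the count depended on it. It was 75 without FE8 treated replicate 1, 78 without FE8 treated replicate 2 and 81 with the 208F arrays alone, but 663 and 416 without 208F treated replicates 1 and 2. The treated duplicates of 208F differed by a median of 0.304 on the log2 scale and those of FE8 by 0.272. Both treated FE8 arrays were run on chip lot 3 and scan day 3, whereas the treated 208F arrays were on different lots and days. Without a treated 208F array the error comes from the FE8 pair alone, within the same lot and day. Of the 156 changed genes, 45 passed in every one of the 13 alternative settings that tested them, 39 of them higher and 6 lower. None of the 156 reversed its direction.

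The genes that rose were mostly faint in untreated cells and the genes that fell were mostly bright. The median untreated signal was 128 for probe sets that rose, 2842 for those that fell and 354 for all. Among the genes that rose, 44 had an untreated signal under 64. Among the 50 that fell, 40 had at least 1000, a level reached by 25.7% of all genes. The untreated array is part of each difference, so the probe sets were also ordered by untreated FE8, an array outside the 208F comparison but run on the same chip lot 1 and scan day 1 as untreated 208F. Ordered so, the median difference was 0.33 for FE8 signals under 64 and -0.11 for those of at least 1000, compared with 0.42 and -0.19 when ordered by untreated 208F. The calls split less by this order. For FE8 signals under 64 there were 50 higher and 5 lower probe sets, against 62 and 0 by untreated 208F, and for those of at least 1000 there were 42 higher and 38 lower, against 19 and 66. Falls thus no longer outnumbered rises among bright probe sets when ordered by untreated FE8. Even so, 38 of the 77 falls lay in this bin, which held 1244 of the 4818 probe sets. This ordering was chosen after the data were seen.

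**Figure D1:**
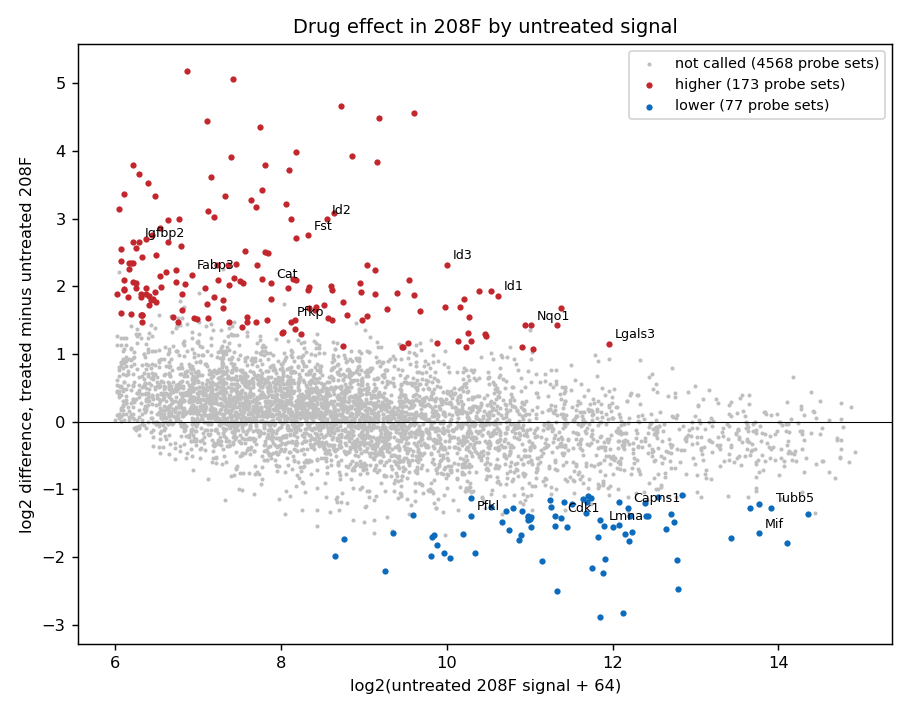
The log2 difference of each of 4818 probe sets in 208F (vertical axis) is plotted against log2 of the untreated signal plus 64 (horizontal axis), with the 173 that rose in red, the 77 that fell in blue and the rest in grey. The red points lie mostly at low untreated signal (median 128) and the blue points at high signal (median 2842), and the untreated value enters both axes.

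Promoters of genes with the largest changes that had a single RefSeq window, 3 that rose and 2 that fell, are shown to let their CpG content be seen, since methylation, which the drug removes, sits on the cytosine of CpG. Each line holds the 250 bases upstream of the RefSeq start on build GRCr8, 5′ to 3′ on the gene's strand, with CpG in capitals. Chrna7 lies at chr1:126249130-126249379 (minus strand), Ocm at chr12:15700376-15700625 (plus), Krt8 at chr7:135010340-135010589 (minus), Col5a1 at chr3:31606630-31606879 (plus) and Acta2 at chr1:241172504-241172753 (minus). Myl9, which fell most, is named only.
Chrna7: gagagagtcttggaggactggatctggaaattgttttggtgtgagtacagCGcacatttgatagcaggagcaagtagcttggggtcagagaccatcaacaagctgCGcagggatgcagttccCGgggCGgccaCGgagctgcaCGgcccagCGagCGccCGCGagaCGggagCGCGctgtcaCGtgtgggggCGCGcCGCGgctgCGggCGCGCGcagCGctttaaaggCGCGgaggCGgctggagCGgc
Ocm: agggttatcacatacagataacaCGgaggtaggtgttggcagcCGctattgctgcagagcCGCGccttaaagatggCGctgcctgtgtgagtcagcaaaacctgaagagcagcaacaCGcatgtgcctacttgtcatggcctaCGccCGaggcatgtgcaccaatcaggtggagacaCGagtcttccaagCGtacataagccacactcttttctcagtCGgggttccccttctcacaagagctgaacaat
Krt8: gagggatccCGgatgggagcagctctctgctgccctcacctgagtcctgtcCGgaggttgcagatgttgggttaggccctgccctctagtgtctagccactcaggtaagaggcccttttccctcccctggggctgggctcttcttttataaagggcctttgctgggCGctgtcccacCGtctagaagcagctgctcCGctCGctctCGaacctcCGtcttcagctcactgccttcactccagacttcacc
Col5a1: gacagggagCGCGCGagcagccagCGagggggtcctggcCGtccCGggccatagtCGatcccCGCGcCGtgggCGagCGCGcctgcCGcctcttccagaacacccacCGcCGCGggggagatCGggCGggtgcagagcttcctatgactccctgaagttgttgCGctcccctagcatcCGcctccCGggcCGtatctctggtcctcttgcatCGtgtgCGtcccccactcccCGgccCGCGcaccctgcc
Acta2: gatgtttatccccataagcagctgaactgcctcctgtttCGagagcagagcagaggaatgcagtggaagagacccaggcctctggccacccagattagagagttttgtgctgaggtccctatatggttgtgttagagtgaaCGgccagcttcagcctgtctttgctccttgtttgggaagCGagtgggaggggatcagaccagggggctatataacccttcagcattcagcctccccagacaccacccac
The 250 bases held 27 CpG for Chrna7, 11 for Ocm and 8 for Krt8, and 28 for Col5a1 and 3 for Acta2. The counts thus ranged widely among both the genes shown that rose and those that fell.

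Over windows of 300 bases (250 before and 50 after the start), genes that rose had a median of 6.33 CpG per 100 bases (75 genes with 1 window), genes that fell 7.67 (37 genes) and all genes 7.0 (2299 genes). The ratio of observed to expected CpG was at least 0.6 in 60.0%, 73.0% and 71.6% of them. Among genes with an untreated signal under 64, it was reached by 52.9% of the 34 that rose and 43.0% of all 307. These shares are a description without a test, and no CpG here is known to have been methylated.

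**Figure D2:**
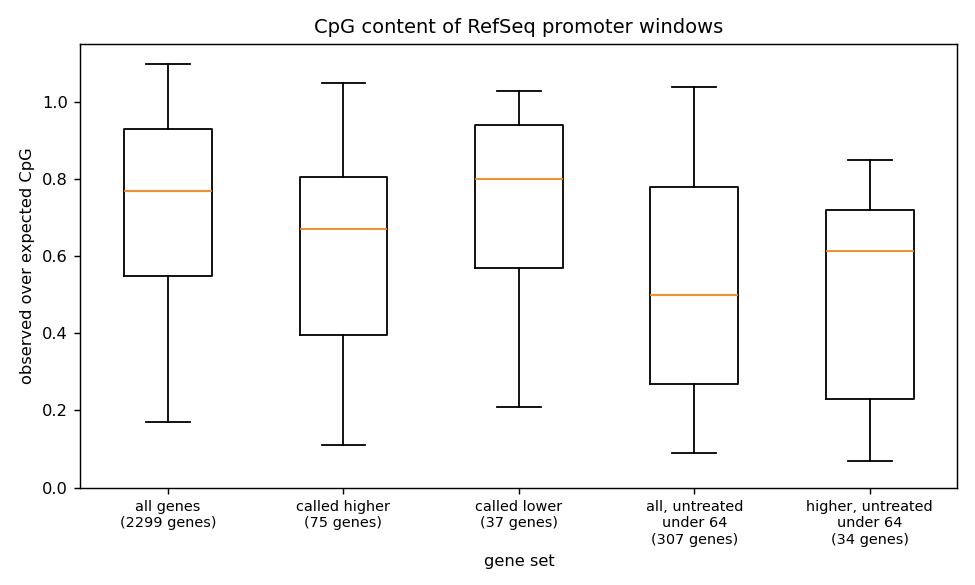
Observed over expected CpG (vertical axis) in RefSeq promoter windows of 300 bases is drawn for 5 gene sets, with boxes from the lower to the upper quartile, a line at the median and whiskers from the 5th to the 95th percentile. The median was 0.77 for all genes, 0.67 for those that rose, 0.80 for those that fell, and 0.50 and 0.61 for all genes and risen genes with an untreated signal under 64.

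Some genes went from near the bottom of the scale to a clear signal. Of 642 probe sets under 64 in untreated cells, 28 were over 4 times that level in both treated arrays. They named 18 genes, chosen by the same 3 arrays that the test uses. Besides Chrna7, Cd24, Spint2 and Ptgr1 they included Crabp2, which binds retinoic acid in the cytosol, with 35 untreated against 700 and 739 treated (2.98 ± 0.34, limma adjusted p = 0.00051). Mmp23, a membrane-anchored metalloproteinase, had 23 untreated against 607 and 453 treated (2.76 ± 0.40, limma adjusted p = 0.0024). Cox6a2, the heart and muscle form of a cytochrome oxidase subunit, had 47 untreated against 671 and 554 treated (2.60 ± 0.35, limma adjusted p = 0.0015), with 2 of its 3 probe sets called. The treated arrays of all 3 lay far above the untreated one and close to each other. In the other direction 1 probe set without a named gene went from that higher level to under 64.

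The inhibitors of differentiation rose together, 3 helix-loop-helix proteins that block other transcription factors and are classic targets of BMP signalling. Id2 had 311 untreated against 2194 and 3876 treated (2.99 ± 0.35, limma adjusted p = 0.00051), and Id3 had 960 untreated against 3936 and 6432 treated (2.32 ± 0.35, limma adjusted p = 0.0033). Id1 had 1513 untreated against 6170 and 5171 treated (1.86 ± 0.29, limma adjusted p = 0.004), and its second probe set stood at 0.31. Of 22 measured genes of TGF-beta, BMP and activin signalling, 6 rose and none fell by the brightest probe set, with a median of 0.33, where 4.74% of all genes were called. The other members that rose were Fst, which encodes the activin-binding protein follistatin, with 257 untreated against 1825 and 2422 treated (2.76 ± 0.33, both probe sets called), Gdf15, a stress-induced member of the family, with 8 untreated against 363 and 251 treated (2.35 ± 0.39), and the activin subunit Inhbe, named after its values were seen. The abundant ligand Tgfb3 did not pass, with 6289 untreated against 4984 and 2742 treated (-0.76 ± 0.34, limma adjusted p = 0.28). Fstl1, a secreted relative of follistatin in the same list, fell in 1 of its 2 probe sets, which was not its brightest. It had 5338 untreated against 2221 and 1801 treated (-1.39 ± 0.28). Id2, Id3, Fst and Gdf15 passed in every alternative setting. Without FE8 treated replicate 1, limma's adjusted p was 0.0501 for Id1, and with either treated FE8 array left out it was 0.0716 to 0.072 for Inhbe and 0.106 to 0.108 for Fstl1.

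Errfi1, Dusp6 and Dusp1, 3 feedback inhibitors of growth factor signalling, rose. Errfi1, which binds and restrains the EGF receptor, had 165 untreated against 1112 and 1363 treated (2.50 ± 0.28, limma adjusted p = 0.00041). Dusp6, the cytosolic phosphatase of ERK, had 436 untreated against 1533 and 2156 treated (1.91 ± 0.29, limma adjusted p = 0.0031), and the nuclear phosphatase Dusp1 had 716 untreated against 2562 and 3044 treated (1.87 ± 0.30, limma adjusted p = 0.0045). The second probe set of Errfi1 stood at 1.54, that of Dusp6 at 1.65, and the lowest of 3 for Dusp1 at 1.03. Of 43 phosphatases and ERK feedback genes 3 rose and none fell, both DUSP genes and Ptprn, with a median of 0.12 that became -0.02 after quantile normalization or median centring, and 4.74% of all genes were called. Among 34 immediate early factors 6 rose and none fell (median 0.47), among them the ID genes, Klf4, a zinc finger factor of growth arrest, with 112 untreated against 596 and 1115 treated (2.33 ± 0.37), and Atf3, with 94 untreated against 479 and 493 treated (1.80 ± 0.33). Their abundant relatives did not pass, Egr1 with 3571 untreated against 7747 and 5821 treated (0.90 ± 0.29, limma adjusted p = 0.12) and Jun with 1394 untreated against 1218 and 1701 treated (0.05 ± 0.32, limma adjusted p = 0.97). Among 63 protein kinases only Sgk1, a kinase induced by serum and glucocorticoid, rose (440 untreated against 1067 and 1732 treated, 1.50 ± 0.32). By the brightest probe set it was the single call of that list (1.59%), below the 4.74% of all genes. The receptor for glucocorticoid, Nr3c1, had 22 untreated against 231 and 238 treated (1.80 ± 0.38), with its second probe set at 0.55. With either treated FE8 array left out, limma's adjusted p was 0.0542 to 0.14 for Dusp6, Klf4, Atf3, Nr3c1 and Sgk1, whereas Errfi1 and Dusp1 still passed.

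**Figure D3:**
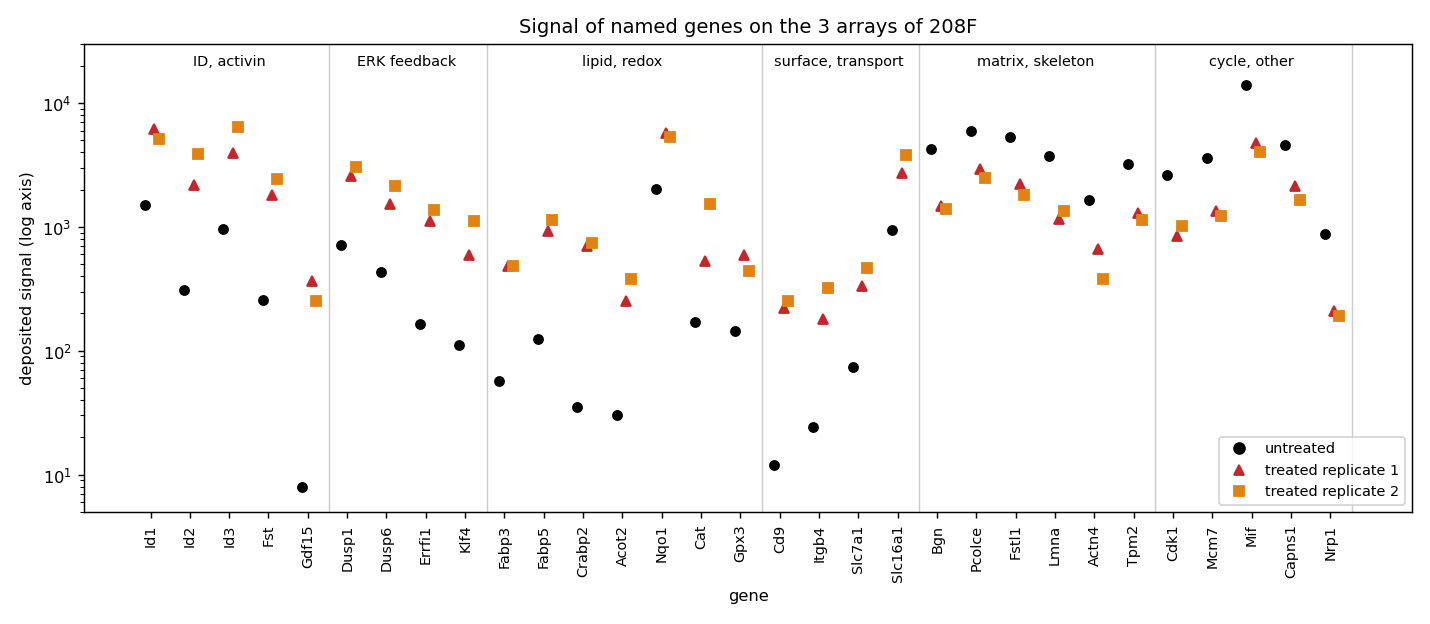
The deposited signal (vertical axis, log scale) of named genes is drawn for the untreated array (black circles), treated replicate 1 (red triangles) and treated replicate 2 (orange squares) of 208F, grouped by role. In each gene both treated arrays lie on the same side of the untreated one, from Gdf15 at 8 against 363 and 251 to Mif at 13881 against 4796 and 4007.

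All 11 measured genes of the integrated stress response lay above the untreated array on both treated arrays, where 45.6% of all genes did so. Cells switch this response on when amino acids are short or unfolded proteins gather. Of the 11 genes 3 passed the test (27.3%, median 0.92), where 4.74% of all genes were called. Besides Trib3 these were Atf3 and Ddit3, which encodes the death-promoting factor CHOP and had 459 untreated against 2642 and 2455 treated (2.32 ± 0.27, limma adjusted p = 0.00054). Slc3a2, the heavy chain of amino acid exchangers, did not pass, with 1437 untreated against 3134 and 2458 treated (0.92 ± 0.32, limma adjusted p = 0.15). Of 17 endoplasmic reticulum chaperones none was called by the brightest probe set (median -0.38). The abundant Hspa5, the chaperone known as BiP, had 5812 untreated against 5405 and 5526 treated (-0.09 ± 0.27, limma adjusted p = 0.92). Fkbp2 of this list fell in 1 of 2 probe sets, which was not its brightest, with 1193 untreated against 470 and 556 treated (-1.13 ± 0.28). It passed in 5 of 13 alternative settings and is named after its values were seen. Of 17 amino acid and tRNA enzymes none was called either (median 0.12). Cryab, a small heat shock protein, rose from an already high level, with 1420 untreated against 6365 and 4939 treated (1.93 ± 0.31, limma adjusted p = 0.005), while Hsp90ab1 and Hspd1, the abundant cytosolic and mitochondrial chaperones of the same list, stood at -0.04 and -0.27 without passing. Against 4.74% of all genes called, 4 of 12 p53 targets and growth arrest genes rose and none fell, with a median of 0.56. They included Gadd45a, a growth arrest gene, in 3 of its 4 probe sets (498 untreated against 2292 and 2928 treated, 2.24 ± 0.28). The non-coding host transcript Gas5 had 1347 untreated against 3839 and 3009 treated (1.30 ± 0.27), and its adjusted p with either treated FE8 array left out was 0.138 to 0.14 by limma.

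Some redox enzymes rose. Of 35 measured genes of glutathione metabolism and of the NRF2 program 4 rose and none fell by the brightest probe set (median 0.30). The share called was 11.4%, where 4.74% of all genes were called. Nqo1, a quinone reductase and standard NRF2 target, had 2009 untreated against 5744 and 5334 treated (1.43 ± 0.26, limma adjusted p = 0.0092), and both its probe sets were called. Catalase (Cat) had 171 untreated against 530 and 1540 treated (2.05 ± 0.50, limma adjusted p = 0.04), with treated arrays that differed by more than 2-fold. The secreted peroxidase Gpx3 had 143 untreated against 588 and 440 treated (1.47 ± 0.36, limma adjusted p = 0.041). Hmox1, another NRF2 target, had 1616 untreated against 1441 and 1773 treated (-0.01 ± 0.30, limma adjusted p = 0.99), and Prdx1 and Sod1 stood at 0.56 and -0.19 without passing. Ptgr1, which reduces reactive aldehydes and prostaglandins, passed in every setting. Limma's adjusted p with either treated FE8 array left out was 0.0954 to 0.172 for Nqo1, Cat and Gpx3.

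Of the measured lipid genes 4 that bind or store lipids rose, and 3 of the measured sterol genes fell by their brightest probe set. Fabp5, a fatty acid binding protein, had 125 untreated against 928 and 1142 treated (2.53 ± 0.31, limma adjusted p = 0.00084), and Fabp3, its heart relative, had 57 untreated against 479 and 482 treated (2.17 ± 0.39, limma adjusted p = 0.0086). With Plin2 and Crabp2 they were the 4 of 22 measured genes of lipid synthesis, droplets and binding that rose, and no member fell by its brightest probe set. The share called was 18.2%, where 4.74% of all genes were called. The list median was 0.08, and it became -0.06 after median centring. Fasn of this list fell in 1 of 2 probe sets, which was not its brightest, with 1719 untreated against 831 and 539 treated (-1.28 ± 0.32). It passed in 4 of 12 alternative settings that tested it and is named after its values were seen. Scd2, an abundant desaturase, had 2949 untreated against 1499 and 2252 treated (-0.66 ± 0.30, limma adjusted p = 0.27). Another Scd2 probe set, with 942 untreated, stood at -1.67 and did not pass either. Of 33 genes of the TCA cycle and fatty acid oxidation 2 rose by the brightest probe set (6.06%), near the 4.74% of all genes called. They were the acyl-CoA thioesterase Acot2 with 30 untreated against 250 and 382 treated (1.99 ± 0.40) and the dehydrogenase Acadl with 638 untreated against 1276 and 1647 treated (1.11 ± 0.28). Cpt1b of this list, named after its values were seen, rose in 1 of 2 probe sets, which was not its brightest (12 untreated against 224 and 282 treated, 2.05 ± 0.38). Of 17 mevalonate and cholesterol genes 3 fell and none rose (17.6% called against 4.74% of all genes, median -0.58). On both treated arrays 14 lay below the untreated one, as did 28.9% of all genes. The farnesyl diphosphate synthase Fdps had 6754 untreated against 2702 and 2076 treated (-1.49 ± 0.28) and the thiolase Acat2 3568 untreated against 859 and 1263 treated (-1.71 ± 0.30). Cyp51, a sterol demethylase, fell in 1 of 5 probe sets, which was not its brightest, with 988 untreated against 203 and 192 treated (-2.01 ± 0.33), and passed in every alternative setting that tested it. With either treated FE8 array left out, limma's adjusted p was 0.0675 to 0.187 for Acot2 and Acadl and 0.0735 to 0.112 for Fdps and Acat2, while Fabp5, Fabp3 and Crabp2 still passed.

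The forms of phosphofructokinase, the committed step of glycolysis, moved in opposite directions. Pfkl, the liver form, had 1192 untreated against 467 and 369 treated (-1.39 ± 0.33, limma adjusted p = 0.033), and Pfkp, the platelet form, had 215 untreated against 621 and 826 treated (1.48 ± 0.31, limma adjusted p = 0.017). Untreated cells thus had the higher signal for the Pfkl probe set and treated cells for the Pfkp probe set, each on its own probe scale. Slc16a1, a lactate transporter, rose in both probe sets, with 946 untreated against 2723 and 3821 treated (1.70 ± 0.29). The kinase Pgk1 had 7283 untreated against 3514 and 3281 treated (-1.09 ± 0.26), but only 1 of its 3 probe sets was called and the highest stood at -0.03. Eno1, Pkm and Aldoa, abundant enzymes of the same pathway, stood at -0.16, -0.65 and -0.90 without passing, and the median over the 21 glycolysis genes was -0.07. Among 33 respiratory chain and ATP synthase genes 2 rose by the brightest probe set (6.06%, median -0.14), near the 4.74% of all genes called. They were the uncoupling protein Ucp2 with 259 untreated against 1013 and 929 treated (1.68 ± 0.30) and Cox6a2, while the abundant Atp5f1b and Cox4i1 stood at -0.15 and 0.13. On both treated arrays 7 of the 33 lay above the untreated one and 17 below it, against 45.6% and 28.9% of all genes. Cox5b of this list rose in 1 of 2 probe sets, which was not its brightest, with 1854 untreated against 3761 and 4325 treated (1.10 ± 0.26). It passed in 6 of 12 alternative settings that tested it. Ndufb2, a respiratory chain gene outside this list, fell, with 3143 untreated against 1308 and 1468 treated (-1.15 ± 0.30, limma adjusted p = 0.049). Ndufb2 passed in 4 of 13 alternative settings and is named after its values were seen. Vdac1, the pore of the outer mitochondrial membrane, fell in 1 of 2 probe sets, with 858 untreated against 165 and 303 treated (-1.67 ± 0.38). Limma's adjusted p with either treated FE8 array left out was 0.0624 to 0.206 for Pfkl, Pfkp, Slc16a1, Pgk1, Ucp2 and Vdac1, and Cox6a2 still passed.

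Among 52 transporters 5 rose and none fell by the brightest probe set (9.62%, median 0.36), where 4.74% of all genes were called. On both treated arrays 32 lay above the untreated one, as did 45.6% of all genes. Slc4a2 of this list fell in 1 of 2 probe sets, which was not its brightest, with 544 untreated against 60 and 78 treated (-2.20 ± 0.55). It passed in 8 of 13 alternative settings. Besides Abcb1b and Slc16a1 the 5 that rose were the arginine carrier Slc7a1, with 74 untreated against 336 and 469 treated (1.74 ± 0.36), the prostaglandin carrier Slco2a1, with 21 untreated against 233 and 199 treated (1.72 ± 0.37), and the chloride cotransporter Slc12a2, named after its values were seen. Other probe sets of Slc7a1 reached down to 0.05. Of 37 xenobiotic and steroid genes 3 cytochromes P450 rose and none fell (median 0.19, and -0.03 after quantile normalization). They were Cyp2c23, which makes epoxides of arachidonic acid, with 118 untreated against 612 and 810 treated (2.08 ± 0.35), Cyp2c7 with 7 untreated against 215 and 170 treated (1.85 ± 0.40) and Cyp3a9 with 75 untreated against 250 and 449 treated (1.53 ± 0.34). Ptgs1, the constitutive cyclooxygenase, had 82 untreated against 391 and 546 treated (1.85 ± 0.34). Alas1, the first enzyme of haem synthesis, had 120 untreated against 366 and 483 treated (1.40 ± 0.34). Close paralogs among P450 genes can share probe sequence, so their separate values are uncertain. With either treated FE8 array left out, limma's adjusted p was 0.05 to 0.184 for these 8 genes from Slc7a1 to Alas1, and it was 0.0598 for Alas1 without 208F treated replicate 2.

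Among 42 proteases and inhibitors 6 rose and 1 fell (16.7% called against 4.74% of all genes), with a median of 0.33. Tfpi, the inhibitor of the tissue factor pathway, had 109 untreated against 691 and 697 treated (2.13 ± 0.30, limma adjusted p = 0.0021). Plau, the urokinase that activates plasminogen, had 48 untreated against 347 and 356 treated (1.89 ± 0.35, limma adjusted p = 0.01). Ctsl, a lysosomal cathepsin, and Serpinb2, which inhibits urokinase, also rose and are named after their values were seen. Capns1, the shared small subunit of the calpains, fell in 2 of its 3 probe sets, with 4584 untreated against 2122 and 1635 treated (-1.27 ± 0.27, limma adjusted p = 0.021). The abundant inhibitor Timp2 had 8329 untreated against 11354 and 8570 treated (0.24 ± 0.29, limma adjusted p = 0.74). Mmp23, Spint2 and Tfpi passed in every setting, and with either treated FE8 array left out limma's adjusted p was 0.0553 to 0.152 for Plau, Ctsl, Serpinb2 and Capns1.

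At the cell surface, genes changed both ways. The tetraspanin Cd9 had 12 untreated against 221 and 253 treated (1.98 ± 0.39, limma adjusted p = 0.013) in both probe sets, and the integrin Itgb4, part of hemidesmosomes in epithelia, had 24 untreated against 182 and 321 treated (1.81 ± 0.38, limma adjusted p = 0.019). The proteoglycan Cspg4, a marker of pericytes, had 589 untreated against 131 and 157 treated (-1.65 ± 0.38, limma adjusted p = 0.029). Nrp1, a coreceptor of VEGF and semaphorins, had 876 untreated against 208 and 192 treated (-1.83 ± 0.37), and Fzd2, a Wnt receptor, had 1558 untreated against 576 and 458 treated (-1.49 ± 0.35). In 35 integrin, cadherin and junction genes 2 rose and 1 fell (8.57% called against 4.74% of all genes, median 0.31). The abundant Itgb1 stood at -0.38 without passing. Limma's adjusted p with either treated FE8 array left out was 0.0545 to 0.114 for these 5, and it was 0.0565 for Fzd2 without 208F treated replicate 2.

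Inflammatory mediators also moved both ways. Mif, a cytokine that inhibits macrophage migration and among the brightest genes that fell, had 13881 untreated against 4796 and 4007 treated (-1.65 ± 0.27, limma adjusted p = 0.0058) with both probe sets called. Lgals3, a galactoside-binding lectin, had 3910 untreated against 8700 and 8801 treated (1.15 ± 0.27, limma adjusted p = 0.033). The chemokine Ccl2 had 100 untreated against 691 and 810 treated (2.31 ± 0.29, limma adjusted p = 0.001), and both its probe sets were called. Of 37 genes of the list 3 rose and 1 fell, with a median of 0.41. Psmb8, an immunoproteasome subunit, had 29 untreated against 686 and 545 treated (2.86 ± 0.31, limma adjusted p = 0.00036). It was the single call among 22 genes of antigen presentation (4.55%, median 0.27), a share near the 4.74% of all genes called. The class I gene RT1-A had 2018 untreated against 4580 and 3821 treated (1.03 ± 0.30, limma adjusted p = 0.085), and the chemokine Cxcl10 had 509 untreated against 1078 and 1416 treated (1.18 ± 0.31, limma adjusted p = 0.052). Both treated arrays lay above the untreated one in each, although neither passed. With either treated FE8 array left out, limma's adjusted p was 0.087 to 0.189 for Mif and Lgals3, while Ccl2 and Psmb8 still passed.

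By the brightest probe set 4.74% of all genes were called. Of 29 genes of DNA replication and the G1 cyclins 5 fell (17.2%) and none rose by this count (median -0.49). Besides Mcm6 and Mcm7 these were Pold1, the catalytic subunit of a replicative polymerase, with 834 untreated against 129 and 202 treated (-1.99 ± 0.45, limma adjusted p = 0.027), Rpa3, a subunit of the single-strand binding complex, with 1954 untreated against 524 and 937 treated (-1.40 ± 0.35, limma adjusted p = 0.045), and the cyclin Ccnd3, named after its values were seen. Pcna, the polymerase clamp, just missed the threshold, with 10725 untreated against 5251 and 4710 treated (-1.10 ± 0.29, limma adjusted p = 0.051). Of the 5 probe sets of the cyclin Ccnd1, which is the partner of the same kinases, 1 rose and none fell, between 0.21 and 1.11. Lmna, which encodes lamins A and C, had 3733 untreated against 1151 and 1342 treated (-1.54 ± 0.27, limma adjusted p = 0.0067). By the brightest probe set it was the single call among 21 genes of DNA methylation and chromatin (4.76%), a share near the 4.74% of all genes. Tmpo, a lamina protein of the same list, fell in 1 of 4 probe sets, which was not its brightest (937 untreated against 170 and 225 treated, -1.94 ± 0.34). The splicing regulator Ptbp1 fell in 2 of 3 probe sets, with 1812 untreated against 526 and 461 treated (-1.75 ± 0.32), and the tubulin Tubb5 in 1 of 2, with 15328 untreated against 7942 and 4992 treated (-1.27 ± 0.32). Limma's adjusted p with either treated FE8 array left out was 0.0542 to 0.233 for Pold1, Rpa3, Mcm6, Mcm7, Ccnd3, Ccnd1, Lmna, Tmpo, Ptbp1 and Tubb5.

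Of 18 collagen and collagen-processing genes 3 fell and 1 rose by the brightest probe set (22.2% called against 4.74% of all genes, median -0.71). On both treated arrays 14 lay below the untreated one, as did 28.9% of all genes. Col1a1 of this list also fell in 2 of 4 probe sets, with 11000 untreated against 3243 and 3338 treated (-1.72 ± 0.27). Its brightest probe set, with 22282 untreated against 10923 and 6922 treated, stood at -1.35 without passing. Besides Col5a1 and Col3a1 the third to fall by its brightest probe set was Pcolce, which enhances procollagen cleavage. It had 5923 untreated against 2958 and 2468 treated (-1.11 ± 0.27, limma adjusted p = 0.036). Loxl1, a cross-linking oxidase, rose in 1 of 2 probe sets, with 2044 untreated against 4344 and 4430 treated (1.08 ± 0.26), and Col1a2 did not pass, with 13772 untreated against 11195 and 7773 treated (-0.56 ± 0.31, limma adjusted p = 0.4). Among 21 matrix glycoproteins and proteoglycans 2 fell and 1 rose. The proteoglycan biglycan (Bgn) had 4250 untreated against 1475 and 1394 treated (-1.53 ± 0.29), and Thbs4, a thrombospondin, had 10 untreated against 208 and 292 treated (2.07 ± 0.40). The related proteoglycan Aspn had 371 untreated against 36 and 109 treated (-1.73 ± 0.44), and Rcn3, a calcium-binding protein of the secretory pathway, had 1108 untreated against 263 and 355 treated (-1.66 ± 0.39). The list median was 0.13 and turned to -0.03 after quantile normalization and -0.01 after median centring. Fibroblast markers summed to 120835 untreated against 97607 and 74645 treated, with 2 of the 11 measured called lower by the brightest probe set.

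Of 49 actin, myosin and contractile genes 6 fell and none rose (12.2% called against 4.74% of all genes), although their median was -0.06. The crosslinker Actn4 had 1660 untreated against 668 and 378 treated (-1.60 ± 0.35, limma adjusted p = 0.023), and the tropomyosin Tpm2 had 3207 untreated against 1305 and 1146 treated (-1.35 ± 0.33, limma adjusted p = 0.043). Actb and Actg1, the cytoplasmic actins, stood at 0.10 and -0.41 without passing. Beta-actin's signal at the 5' end over the 3' end also went down with treatment, from 0.824 to 0.529 and 0.456, and the part this had in the falls was not tested. Myl9, Col5a1, Acta2 and Col3a1 passed in every setting. With either treated FE8 array left out, limma's adjusted p was 0.0542 to 0.192 for the matrix genes Pcolce, Loxl1, Bgn, Thbs4, Aspn and Rcn3 and 0.106 to 0.138 for Actn4 and Tpm2, and it was 0.0969 for Aspn without 208F treated replicate 1.

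Some genes best known from other tissues rose. By the brightest probe set 3 of 21 muscle differentiation genes rose and 1 fell (median 0.49). Of 32 neuroendocrine and synaptic genes 1 rose (3.12%, median 0.36), and of 37 neurotransmitter and neuropeptide receptors 2 rose (5.41%, median 0.22), where 4.74% of all genes were called. Myod1, the master factor of skeletal muscle, had 260 untreated against 1302 and 1147 treated (1.99 ± 0.35, limma adjusted p = 0.0071), and the cardiac troponin Tnni3 had 15 untreated against 163 and 181 treated (1.58 ± 0.39, limma adjusted p = 0.04). The homeobox gene Msx1 had 15 untreated against 243 and 200 treated (1.85 ± 0.41), whereas Meox2, a homeobox gene of mesoderm, fell, with 2201 untreated against 543 and 424 treated (-2.06 ± 0.37). Uchl1, a ubiquitin hydrolase of neurons, rose in 1 of 3 probe sets, which was not its brightest, with 10 untreated against 370 and 266 treated (2.35 ± 0.39). The vasopressin receptor Avpr1a had 29 untreated against 237 and 507 treated (2.16 ± 0.46). Igfbp2, a binding protein of insulin-like growth factors, had 14 untreated against 429 and 421 treated (2.65 ± 0.39) and both probe sets were called. Of 11 germline genes 2 rose and 10 lay above the untreated array on both treated arrays, with a median of 0.61. Ddx4, a helicase of germ cells, had 19 untreated against 149 and 442 treated (1.98 ± 0.50), and Hspa2, a chaperone of testis, had 16 untreated against 154 and 198 treated (1.58 ± 0.39). Sycp3, a protein of the meiotic chromosome axis, had 2 untreated against 93 and 529 treated and did not pass (2.21 ± 0.62, limma adjusted p = 0.069), its treated arrays differing more than 5-fold.

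Markers of other cell types moved unevenly. The 5 measured epithelial markers summed to 183 untreated against 5126 and 4580 treated, and 4 rose. The 5 measured muscle markers summed to 963 against 3487 and 3570, and 2 rose. The 3 measured neuron and glia markers summed to 556 against 661 and 629 with none called, and the single leukocyte marker, Cd14, was not called, with 446 and 322 on the treated arrays. Their part in the results was not tested. Limma's adjusted p with either treated FE8 array left out was 0.0658 to 0.168 for Tnni3, Msx1, Avpr1a, Ddx4 and Hspa2, and without 208F treated replicate 2 it was 0.102 for Ddx4, 0.076 for Hspa2 and 0.0539 for Tnni3. The adjusted p of Myod1 without FE8 treated replicate 1 was at the threshold of 0.05. Meox2, Igfbp2 and Uchl1 passed in every one of these settings.

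**Figure D4:**
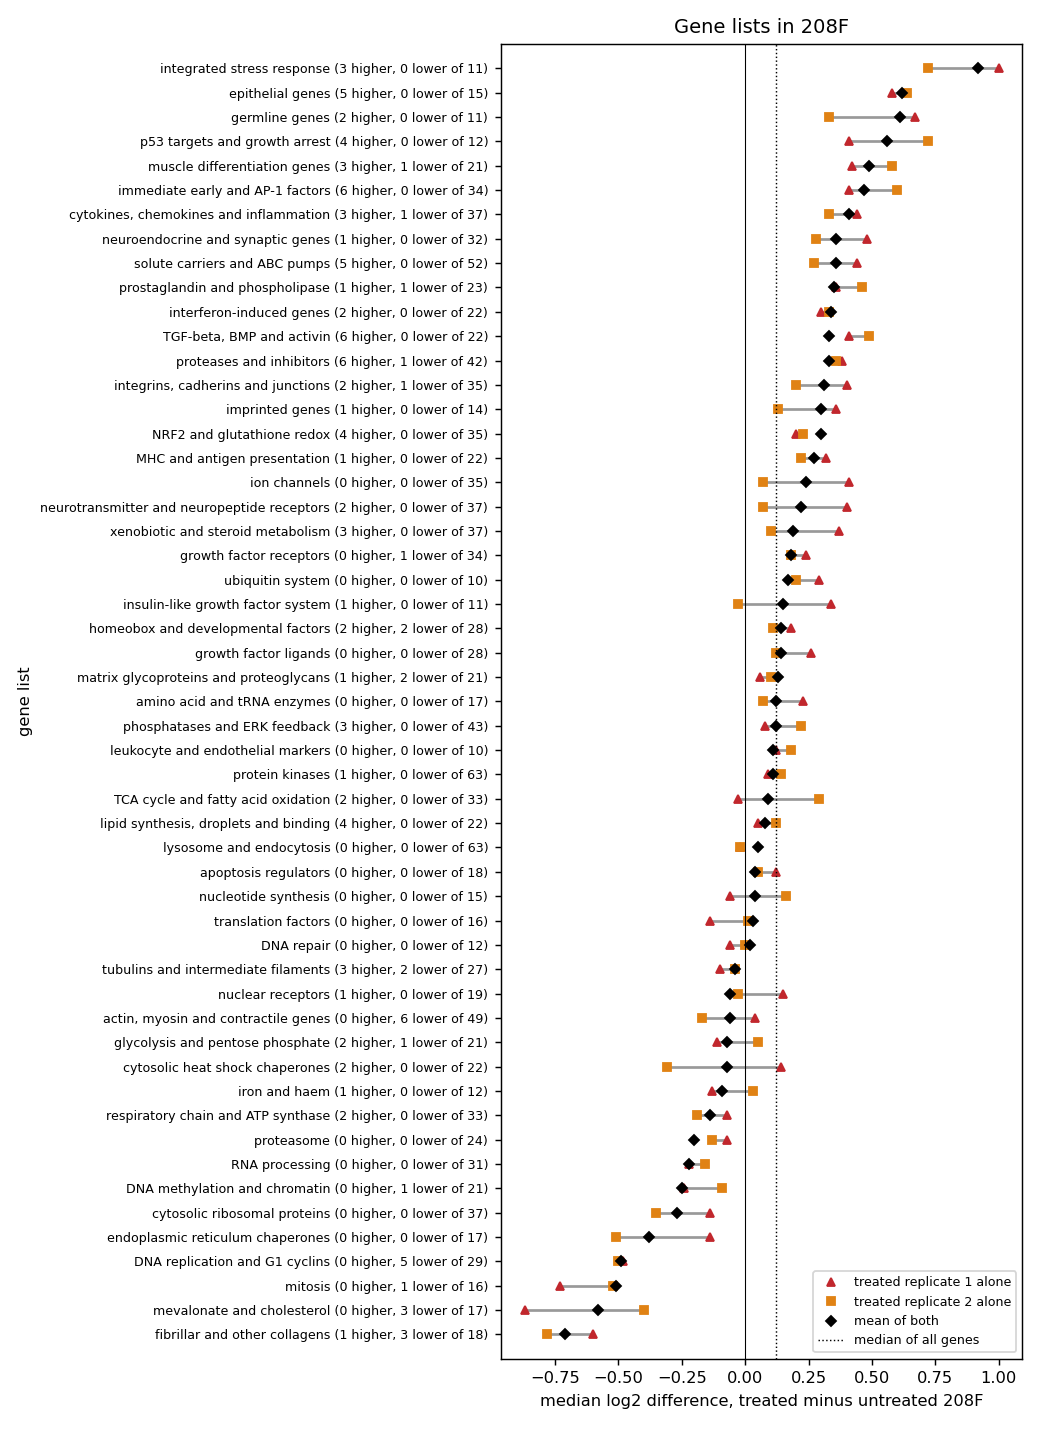
The median log2 difference (horizontal axis) of the gene lists is drawn for treated replicate 1 alone, treated replicate 2 alone and the mean of both, with the calls and measured genes of each list on the vertical axis and a dotted line at 0.12, the median of all genes. The integrated stress response lies highest at 0.92 and the collagens lowest at -0.71.

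Several lists held no call, where 4.74% of all genes were called, a share that gives few calls in a list of this size. None of 37 ribosomal proteins passed (median -0.27), and Rpl3 had 26735 untreated against 31350 and 16289 treated (-0.24 ± 0.41, limma adjusted p = 0.83). The proteasome (24 genes, median -0.20), RNA processing (31 genes, -0.22), lysosome and endocytosis (63 genes, 0.05) and ion channels (35 genes, 0.24) had none either. In all 15 of 54 lists held no call, counting each gene by its brightest probe set.

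The response was set against that of FE8 in the same fit, where 3 probe sets (0.0623%) differed between the lines after adjustment and 364 at an unadjusted p under 0.05. Ocm, a calcium-binding protein, rose more in 208F by 3.19 (limma adjusted p = 0.038), with 74 untreated against 3518 and 2490 treated in 208F and 1699 untreated against 4030 and 4291 treated in FE8. Ptprn, a protein of secretory granules, differed by 2.80 (limma adjusted p = 0.038), with 35 untreated against 527 and 595 treated in 208F and 3277 untreated against 3016 and 2888 treated in FE8. Plin2 rose less in 208F, by -2.69 (limma adjusted p = 0.038), with 96 untreated against 1568 and 1551 treated in 208F and 38 untreated against 6483 and 6738 treated in FE8. In 208F only 1 of the 2 Plin2 probe sets was called, and the other stood at 0.25. Ocm and Ptprn were already bright in untreated FE8, and Plin2 was faint in both untreated lines by the called probe set. None of the 3 passed after quantile normalization, without the intensity trend, with a minimum mean signal of 200, with the replicate block or without FE8 treated replicate 1 or 2 (limma adjusted p = 0.453 and 0.483 for each of the 3). H19, Trib3 and Fabp5 just missed the threshold, at 3.43, 3.20 and -2.74 (limma adjusted p = 0.051 for each).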

How the data were processed

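The values are linear intensity values per probe set of an Affymetrix rat array, deposited by the authors in 1 table of whole numbers. MAS5 is named in the submitters' processing notes, and its version and scaling target are not given in the sources used here. Of 4847 probe sets, 29 array controls were left out and 4818 were tested. From the deposited intensities log2(value + 64) was computed, where 64 is the 10th percentile of the tested signals. Group means of the 4 groups over all 6 arrays were fitted with limma 3.58.1 in R 4.3.3, using lmFit and eBayes with an intensity trend (2 residual and 9.017 prior degrees of freedom), and p-values were adjusted by Benjamini-Hochberg over all 4818. The script was tested on simulated data. Sampling depth does not apply to arrays, and precision is limited by their number.

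Probe sets were named through the platform annotation: 3956 have 1 gene, 207 several and 655 none listed, and 3942 matched RefSeq by gene identifier. Those with several genes were not named. A changed gene is represented by its probe set of smallest p, and a gene in a list by its brightest. Cross-hybridisation of related genes was not tested.

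Named genes are the called genes ranked 13 to 30 in each direction, up to 4 called members per direction and the 2 brightest uncalled members of each of 54 lists, the 10 brightest called genes per direction, up to 10 genes that went from under 64 to over 4 times that, and genes that differed between the lines. The 12 largest changes in each direction serve as a base. Other genes are said to be named after their values were seen. The values of 1 list are not reported here. Members and lists were chosen with earlier results of these data known. The alternatives changed the pseudocount, scaling, filter, variance trend, replicate block, probe sets and arrays used.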

Additional observations from a re-analysis of the deposited data

Results flagged for a closer look

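Differences between 208F and its transformed derivative FE8 drew attention for 13 genes. The drug effect in 208F minus that in FE8 was 3.19 for Ocm, 2.80 for Ptprn and -2.69 for Plin2 on the log2 scale, each past limma's threshold.

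For 10 further genes that changed in 208F, both treated FE8 arrays lay on the other side of their own untreated array. The FE8 difference was 0.06 for Actn4, 0.42 for Col1a1 and 0.32 for Fzd2, which fell in 208F. It was -0.43 for Cyp3a9, -0.32 for Inhbe, -0.06 for Itgb4, -0.81 for Loxl1, -0.19 for Ly6i, -0.43 for Msx1 and -0.61 for Ugcg, which rose in 208F. In the fit the difference between the lines did not pass for any of the 10, with limma adjusted p from 0.055 for Col1a1 upwards, so no difference is claimed for them. Inhbe, Ly6i and Ugcg are named after their values were seen. Of 4 Col1a1 probe sets 2 fell in 208F, and the highest stood at 0.29.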

How the results depend on the processing

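None of the 156 called genes reversed its direction under any alternative that tested it, and genes that were not called were not tallied. Against 250 probe sets called in all, the total was 165 after quantile normalization (45 lower), 142 without probe sets of a shared-type suffix (94 higher, 48 lower), and 81 with the 208F arrays alone (70 higher, 11 lower), while without the intensity trend 39 were lower. Leaving out a treated array gave 75 to 663 calls, 65 to 399 higher and 10 to 264 lower. Of the 156 genes, 99 passed after quantile normalization, 94 without shared-suffix probe sets, 49 with the 208F arrays alone, and 46 to 155 with an array left out. List genes called numbered 72 higher and 30 lower. They became 39 higher without shared-suffix probe sets, 19 lower without the trend, 29 higher and 5 lower with the 208F arrays alone, and 26 to 141 higher and 5 to 98 lower with an array left out. The difference between the lines, with 3 calls, had 10 with a pseudocount of 16, 6 with the larger one, 9 after median centring, 13 without shared-suffix probe sets, 0 to 206 with an array left out, and 0 after quantile normalization, without the trend, with a minimum mean signal of 200 or with the replicate block, by limma. At an unadjusted p under 0.05 the main count was 364. The share of higher calls was 69.2%, 72.7% after quantile normalization and 60.7% after centring.

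The replicate numbers of the treated arrays were used as a block, which gave 216 calls in 208F, 155 higher and 61 lower, with 125 of the 156 genes. The deviations of the 2 pairs correlated at 0.319 over probe sets. The replicate 1 samples share a number but not a chip lot or scan day. The replicate 2 samples also share chip lot 3 and scan day 3, on which treated FE8 replicate 1 was run too. The part of the shared run in this correlation was not tested. A single untreated array per line leaves its own spread unmeasured, so leaving out a treated array leaves a lone sample assumed to vary like the other groups. Signals under 64 are compressed by the constant. The cause of these shifts was not tested.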
